A study of Rattus norvegicus with 4 samples.

Results

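A liver library from partial hepatectomy with cells labelled ASCs-miR27b was compared gene by gene with a naive liver library, 1 library a side. Genes were taken from the deposited table of normalized values, and 9301 of its 31457 rows were kept because their level could be placed at or above a minimum (a mean of at least 10 normalized reads, or a class of at least 16). Both libraries came from LEWIS rats of allotype RT1L, as did the others in the series, and poly(A) RNA of the liver was sequenced on an Illumina MiSeq. The treatment labelled PH-ASCs-miR27b was given by the intravenous route. Its counterpart, labelled Naïve control, carries no surgery or treatment in its labels. Further libraries came from hepatectomy with saline (PH-Saline) and hepatectomy with the control cells (PH-ASCs-siRNC), and these are set beside the main comparison. Every group holds 1 library, so there are 4 libraries in all. The labels used here give neither the sex, the age, the number of pooled animals nor the time between surgery and collection. They also do not spell out ASCs or siRNC. The livers behind the 4 libraries are called naive, saline, siRNC and miR-27b below, whether or not animals were pooled. With 1 library on each side no difference has a replicate check, no p-value is given, and every fold describes these libraries.

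After partial hepatectomy the remaining hepatocytes keep up plasma protein synthesis, ammonia disposal, bile formation and glucose supply while they pass through a cell cycle. Cytokines of the interleukin-6 family, made largely by Kupffer cells, act through STAT3 to prime hepatocytes and to switch on acute-phase proteins. Growth factors such as HGF then drive cyclin D1 and DNA synthesis, and TGF beta restrains it. MicroRNAs pair through their seed with messenger RNAs and lower their level or translation, and reported targets of miR-27b include genes of lipid metabolism and the coactivator gene Ppargc1a.

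The mature microRNA that names the treated group is shown first, from RefSeq (GRCr8, chromosome 17, minus strand, positions 1819163 to 1819183), with its seed, bases 2 to 8, in capitals. The microRNA itself was not measured here.
rno-miR-27b-3p: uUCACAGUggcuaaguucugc

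Promoter sequences are shown for 7 genes that lay far from the naive level in the miR-27b liver, all 7 of which were matched by gene ID to RefSeq's GRCr8 promoters. Each is the 250 bases before the annotated start, 5′ to 3′ on the gene's strand. Capitals mark matches on either strand to 1 motif per gene: the metal response core (TGCACNC or TGCGCNC) in the metallothionein genes, the C/EBP type motif TTGCNNAA in Orm1 and Lcn2, the STAT type motif TTCNNNGAA in the hepcidin gene Hamp, and the Y box CCAAT in MHC class II genes.
Mt2A (GRCr8 chr19:10838709-10838958, minus strand): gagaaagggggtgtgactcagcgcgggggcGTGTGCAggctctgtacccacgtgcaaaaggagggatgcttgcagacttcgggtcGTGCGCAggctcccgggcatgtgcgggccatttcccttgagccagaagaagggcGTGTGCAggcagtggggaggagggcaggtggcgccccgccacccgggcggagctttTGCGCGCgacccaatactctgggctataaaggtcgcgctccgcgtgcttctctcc
Mt1a (GRCr8 chr19:10832976-10833225, minus strand): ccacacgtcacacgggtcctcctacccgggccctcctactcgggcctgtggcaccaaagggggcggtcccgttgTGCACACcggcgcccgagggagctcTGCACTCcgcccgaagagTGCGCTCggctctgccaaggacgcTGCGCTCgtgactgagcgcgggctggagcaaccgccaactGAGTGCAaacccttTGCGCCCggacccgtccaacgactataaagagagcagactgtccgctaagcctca
Orm1 (GRCr8 chr5:81788259-81788508, plus strand): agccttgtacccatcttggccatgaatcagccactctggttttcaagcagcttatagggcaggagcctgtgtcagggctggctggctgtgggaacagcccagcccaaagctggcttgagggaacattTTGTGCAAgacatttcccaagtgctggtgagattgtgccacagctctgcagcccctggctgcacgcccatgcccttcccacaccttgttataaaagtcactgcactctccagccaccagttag
Lcn2 (GRCr8 chr3:36081781-36082030, minus strand): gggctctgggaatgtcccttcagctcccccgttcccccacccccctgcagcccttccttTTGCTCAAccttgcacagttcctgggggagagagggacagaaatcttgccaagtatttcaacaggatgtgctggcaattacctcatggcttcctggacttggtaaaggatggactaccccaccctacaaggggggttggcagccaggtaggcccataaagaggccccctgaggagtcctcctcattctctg
Hamp (GRCr8 chr1:95300272-95300521, minus strand): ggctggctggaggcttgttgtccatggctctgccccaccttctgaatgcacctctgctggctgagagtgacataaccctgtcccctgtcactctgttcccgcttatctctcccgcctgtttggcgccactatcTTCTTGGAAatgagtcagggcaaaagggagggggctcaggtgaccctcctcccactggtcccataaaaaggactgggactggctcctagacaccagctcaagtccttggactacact
RT1-Ba (GRCr8 chr20:4576807-4577056, plus strand): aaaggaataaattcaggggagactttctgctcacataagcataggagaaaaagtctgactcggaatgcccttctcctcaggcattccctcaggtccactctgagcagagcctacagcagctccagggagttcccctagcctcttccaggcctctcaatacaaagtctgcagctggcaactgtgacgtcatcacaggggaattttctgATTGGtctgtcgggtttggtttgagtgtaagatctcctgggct
RT1-Da (GRCr8 chr20:4515165-4515414, plus strand): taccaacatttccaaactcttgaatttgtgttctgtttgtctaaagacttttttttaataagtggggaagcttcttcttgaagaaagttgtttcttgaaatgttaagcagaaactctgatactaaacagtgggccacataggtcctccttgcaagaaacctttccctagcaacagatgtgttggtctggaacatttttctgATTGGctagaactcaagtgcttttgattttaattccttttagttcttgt

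These motifs are common, and a match is a description of the letters only. Metallothioneins bind zinc and copper, and their metal response elements are read by the zinc-sensing factor MTF1. The core matched 4 times in Mt2A and 6 times in Mt1a (named Mt1 by RefSeq). At least 1 match was present in 20.6% of the 33469 promoters of the same length. It was also present in 8 of the 10 matched promoters of the list of metallothioneins and zinc transporters. TTGCNNAA was present in 8 of 18 matched promoters of positive acute-phase genes, against 9.22% of all promoters. TTCNNNGAA was present in 5 of those 18, against 7.67% of all, and in 0 of 12 matched promoters of the IL-6 and STAT3 signalling list. CCAAT was present in 6 of 8 matched MHC class II promoters and in 34% of all promoters.

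All values below are the deposited log2 values, in which 0 stands for the baseline of each gene and not for a level, so they compare libraries within a gene and never genes with each other. A difference is the miR-27b value minus the naive value on that log2 scale, where 1 is 2-fold. Over the 9301 kept genes the median difference was -0.03, with quartiles of -0.33 and 0.30. Within 1.2-fold of naive lay 43.5% of the genes, and within 1.5-fold lay 73.9%. At least 2-fold higher in the miR-27b liver were 717 genes, or 7.71%, and at least 2-fold lower were 345, or 3.71%. In the saline liver the same shares were 5.37% higher (499 genes) and 3.54% lower (329 genes) than naive. In the siRNC liver they were 5.67% higher (527 genes) and 3.17% lower (295 genes). The median absolute difference from naive was 0.31 in the miR-27b liver and 0.28 in each of the saline and siRNC livers. By this measure the miR-27b liver lay slightly further from the naive liver than the other hepatectomized livers did. The 3 comparisons share the naive library. Counting alone gives a log2 ratio of 2 libraries an SD of 0.51 at 16 reads and of 0.13 at 256 reads. Where a gene may be low in 1 of the livers, its difference can rest on few reads. So wherever a pseudocount of 5, added to levels set at the bottom of the gene's class, makes a named 2-fold difference over 1.5 times smaller, that value is printed as well. Total reads per library were not recovered, and size factors ranged from 0.956 to 1.039.

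**Figure D1:**
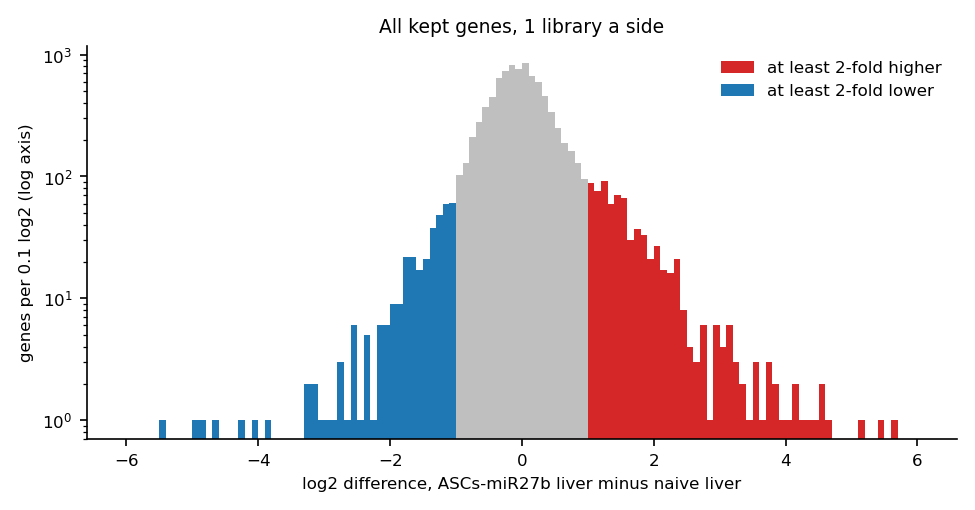
Histogram of the log2 difference, miR-27b liver minus naive liver, for the 9301 kept genes (x axis, log2) by number of genes per 0.1 log2 (y axis, log scale), 1 library a side. The 717 genes at least 2-fold higher are red, the 345 genes at least 2-fold lower are blue, and the bulk lies around a median of -0.03.

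Functions were described through 58 gene lists, of which 55 had at least 5 measured members. A list was called near the naive level when its median lay within 1.2-fold (0.26 on the log2 scale) and fewer than 20% of its measured members were past 2-fold. It was called away when its median lay at least 1.5-fold from naive (0.58) or at least 40% of its members were past 2-fold. All kept genes together also meet the near band, with a median of -0.03 and 11.4% past 2-fold. So near alone does not set a list apart from the genes as a whole. The share past 2-fold in near lists was 0% for oxidative phosphorylation, 3.33% for fatty acid oxidation, 12.5% for gluconeogenesis and 16.7% for bile acid synthesis. In the miR-27b liver 27 lists were near, 17 in between and 11 away. The saline liver had 24 near, 20 in between and 11 away, and the siRNC liver had 31, 14 and 10. Under at least 1 alternative 10 of the 27 near lists became in between and 0 away, 3 of the 11 away lists became in between, and of the 17 in between 3 became near and 4 away. Near were most of the housekeeping machinery, most hepatocyte synthesis and catabolism, and the stress chaperones. Away were the acute phase, cytokine signalling, complement, MHC class II, the erythroid genes, the growth hormone axis and the markers of non-parenchymal cells.

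**Figure D2:**
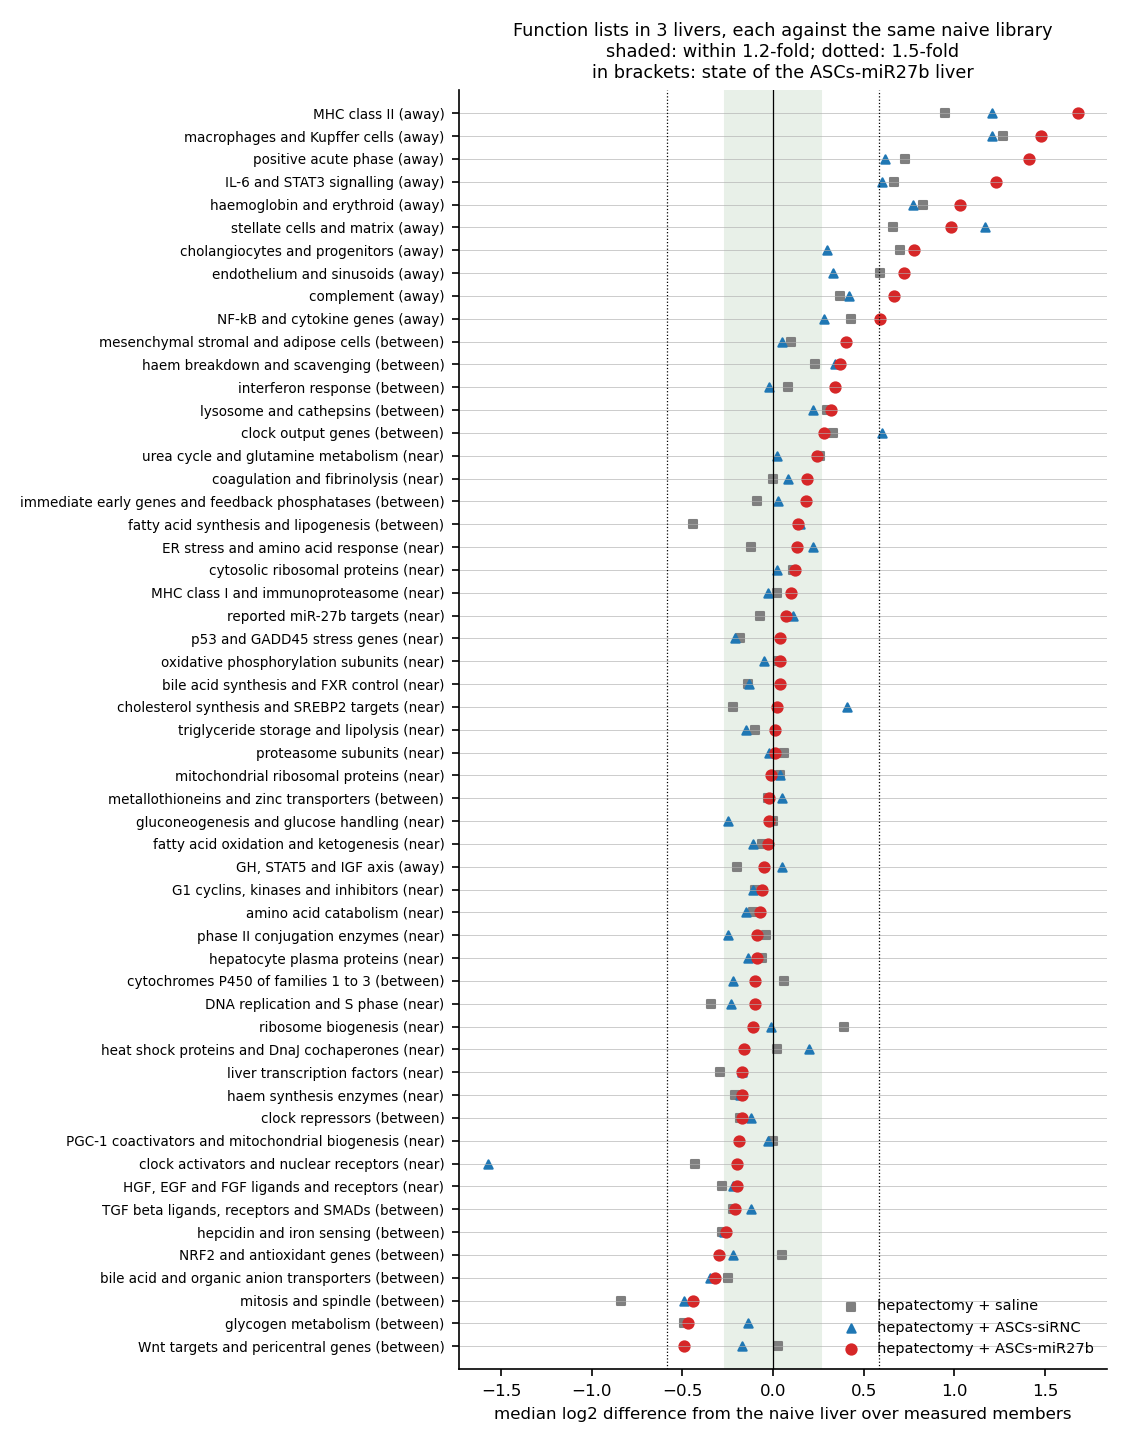
Median log2 difference from the naive liver (x axis) over the measured members of each of 55 function lists (y axis), for the saline (grey squares), siRNC (blue triangles) and miR-27b (red circles) livers, all against the same naive library. MHC class II, macrophage and acute-phase lists have the highest miR-27b medians (1.68, 1.48 and 1.41), and the medians of 10 of the 11 lists called away lie above 0.

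Most lists of the energy and protein machinery of the miR-27b liver lay near the naive level. Lysosome and cathepsin genes were in between, with a median of 0.32. Of these 37 genes, 6 were at least 2-fold higher and 0 lower. The median of that list was 0.30 in the saline and 0.22 in the siRNC liver. Among 75 measured subunits of oxidative phosphorylation, the mitochondrial complexes that make ATP, the median difference was 0.04 and 0 members were past 2-fold. They spanned from -0.79 for Ndufc1 to 0.45 for Ndufs3, both parts of complex I. The 34 proteasome subunits had a median of 0.01, and again 0 were past 2-fold. Mitochondrial ribosomal proteins had a median of -0.01, with 1 of 70 past 2-fold, Mrps24 at -1.37. Ribosome biogenesis factors had a median of -0.11 with 0 of 38 past 2-fold, whereas the saline liver had a median of 0.39 in the same list and the siRNC liver -0.01. Rrs1, a nuclear factor for assembly of the large ribosomal subunit, stood at 0.38 above naive in the miR-27b liver and at 1.32 in the saline liver. Cytosolic ribosomal proteins had a median of 0.12, with 2 of 69 past 2-fold. One of those was Rps2, at -4.68, whose reads may be shared with processed copies and are uncertain. Heat shock proteins and their cochaperones had a median of -0.16, and 0 of 23 were past 2-fold.

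The plasma protein list was near the naive level, and 6 hepatocyte markers are given with it. Their values compare libraries within a gene and so cannot check what the tissue is. Alb, which encodes albumin, was at 0.04 in the naive, -0.01 in the saline, -0.04 in the siRNC liver and 0.12 in the miR-27b liver. The further hepatocyte markers differed from naive by 0.08 for Apoa1, -0.16 for Ahsg, 0.30 for Serpina1, -0.61 for Ttr and -0.71 for Hnf4a, all of them in the class of at least 256 reads. Of 22 measured plasma protein genes 1 was past 2-fold, Hpx, which encodes the haem carrier hemopexin. It stood at -0.84 in the naive liver, between -0.04 and 0.00 in the saline and siRNC livers and at 0.61 in the miR-27b liver, the highest of the 4. Coagulation genes had a median of 0.19 with 2 of 24 past 2-fold. One was the kininogen gene Kng1, at -3.00 in the naive liver, -0.35 and 0.00 in the saline and siRNC livers and 1.23 in the miR-27b liver, a difference of 4.23. The kininogen genes of the rat are close copies, so reads may be shared among them (Kng1l1 differed by 4.18). Liver transcription factors had a median of -0.17, with Foxa2 at -1.15 (-0.74 with the pseudocount) and the xenobiotic receptor gene Nr1i3 at -1.32 below naive.

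Most catabolic and synthetic routes of hepatocytes were near the naive level as lists, as all kept genes together were. Single members lay far from naive. Fatty acid oxidation and ketogenesis had a median of -0.03 and 1 of 30 members past 2-fold, the fasting hormone gene Fgf21 at -1.24. Urea cycle and glutamine metabolism had a median of 0.24, with Cps1, the entry enzyme of the cycle, at 0.12 and Oat the lowest member at -1.04. Amino acid catabolism had a median of -0.07, and 5 of 38 members were past 2-fold, or 13.2% against 11.4% of all kept genes. Sds, Tdo2, Acmsd and Aass were higher, from 1.29 to 1.57, and the histidine ammonia-lyase gene Hal was lower at -1.12. Conjugating enzymes of phase II had a median of -0.09, with 3 of 32 past 2-fold, among them the bilirubin-conjugating Ugt1a1 at -1.05.

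Gluconeogenesis and glucose handling had a median of -0.02, with 3 of 24 members past 2-fold. G6pc, the enzyme that releases free glucose, was at 0.54 in the naive, -0.48 in the saline, -2.14 in the siRNC liver and 0.07 in the miR-27b liver. Of the 3 hepatectomized livers the miR-27b one lay closest to naive for this gene, at -0.46, and the siRNC one furthest, at -2.67. Pck1, the gatekeeping enzyme of gluconeogenesis, differed by 0.43. The coactivator gene Ppargc1a did not follow the list: it was at -1.10 in the naive, 0.73 in the saline, 0.00 in the siRNC liver and 1.85 in the miR-27b liver, a difference of 2.96.

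Cholesterol synthesis lay near naive in the miR-27b liver, where the median was 0.02 and 2 of 26 genes were past 2-fold. In the siRNC liver the median of the same list was 0.41 with 7 genes at least 2-fold higher, and in the saline liver it was -0.22. Hmgcs1, an early enzyme of the pathway, was at 0.30 in the naive, -1.24 in the saline, 0.46 in the siRNC liver and -1.04 in the miR-27b liver. Here the miR-27b and saline livers were low and the naive and siRNC livers high. Fatty acid synthesis was in between, with a median of 0.14 and 6 of 23 genes past 2-fold, 3 in each direction. Its saline median was -0.44. Fasn, the fatty acid synthase gene, was at -0.29 in the naive, -1.28 in the saline, 0.85 in the siRNC liver and 0.64 in the miR-27b liver. Srebf1, the lipogenic transcription factor gene, was at 0.67, -1.45, 0.72 and 0.00 in the same order. For both genes the saline liver was the lowest of the 4. The SREBP anchors went in opposite directions, with Insig1 at 1.54 and Insig2 at -1.76.

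Triglyceride storage and lipolysis had a median of 0.01, with 3 of 22 past 2-fold. The fatty acid importer gene Cd36 was higher by 3.13 (1.76 with the pseudocount), and it was higher by 2.78 in the saline and 2.85 in the siRNC liver. Lpin1, a phosphatidate phosphatase gene, was at 0.00 in the naive, 2.38 in the saline, -0.02 in the siRNC liver and 2.38 in the miR-27b liver, so that the siRNC liver alone matched the naive value. G0s2, which encodes an inhibitor of lipolysis, was lower at -1.53. Bile acid synthesis had a median of 0.04 with 3 of 18 past 2-fold. Cyp7a1, which sets the pace of the classical route, was at -1.90 in the naive, -1.50 in the saline, 0.78 in the siRNC liver and 0.12 in the miR-27b liver. The naive and saline livers were low and both livers of rats given cells were high. Cyp7b1, of the alternative pathway, was higher by 1.64 (1.09 with the pseudocount), and Nr0b2, which encodes the repressor SHP, by 1.03.

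**Figure D3:**
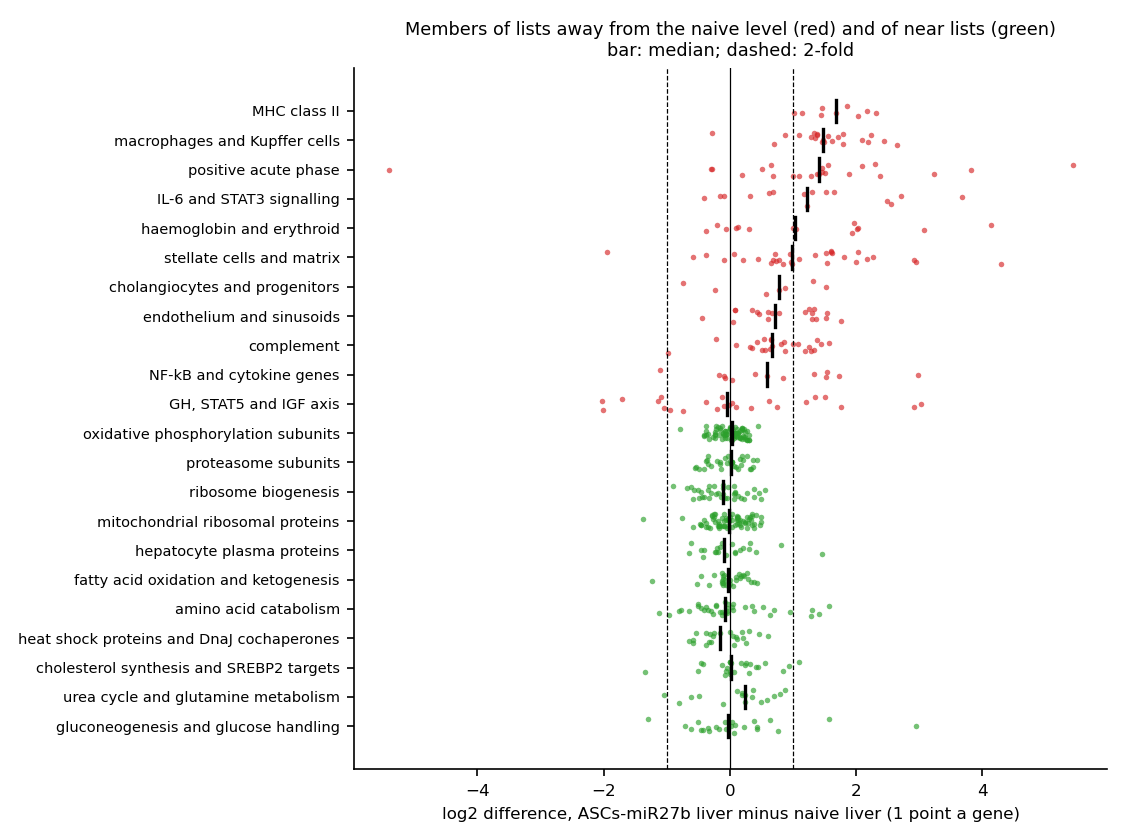
Log2 difference, miR-27b liver minus naive liver, for each measured gene (points) of the 11 lists away from the naive level (red) and of 11 of the 27 near lists (green), with the list median as a bar and 2-fold as dashed lines. Members of the oxidative phosphorylation, proteasome and ribosome biogenesis lists all lie within 2-fold, while all 9 members of the MHC class II list lie at least 2-fold above naive.

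The acute phase was far from the naive level. Of 23 measured positive acute-phase genes, 15 were at least 2-fold higher and 1 lower, with a median of 1.41. In the saline and siRNC livers 5 genes of this list were at least 2-fold higher in each, with medians of 0.73 and 0.62. Lcn2, which encodes the iron-siderophore binder lipocalin 2, was at -2.25 in the naive, 0.00 in the saline, -1.01 in the siRNC liver and 3.19 in the miR-27b liver, a difference of 5.44. Orm1, the gene of the plasma protein orosomucoid, was at -2.08, -0.13, 0.00 and 1.16 in the same order. In both genes the miR-27b liver was the highest and the naive liver the lowest. The metallothionein gene Mt2A was at -3.33, 0.62, -0.34 and 0.49, and Mt1a at -2.09, 0.49, -0.49 and 0.33, with the saline and not the miR-27b liver the highest. Il1rn, the gene of the interleukin-1 receptor antagonist, was at 0.00 in the naive, 0.71 in the saline, -0.10 in the siRNC liver and 2.39 in the miR-27b liver. The list of metallothioneins and zinc transporters was in between, with a median of -0.02 and 21.4% of 14 genes past 2-fold. In the stricter set its median was 0.43 over 6 genes. Among the transporters Slc39a14, an importer of zinc and iron, was higher by 0.86 and the importer gene Slc39a4 was lower at -1.34.

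The lists of IL-6 and STAT3 signalling and of NF-kB and cytokine genes were away as well. In the IL-6 and STAT3 list 9 of the 15 genes measured stood at least 2-fold above naive and 0 at least 2-fold below it, and the median was 1.23. The interleukin gene Il6 had a deposited value of 0 in every library, as did 18583 rows of the table. It was therefore not among the measured genes, and its value gives no level or difference. Osmr, which encodes the oncostatin M receptor subunit, was at -3.14 in the naive liver and between 0.00 and 0.56 in the 3 hepatectomized livers. Socs3, the feedback inhibitor of this pathway, was at -2.01 in the naive, 0.05 in the saline, -1.15 in the siRNC liver and 0.70 in the miR-27b liver. Stat3 was at -0.94, 0.34, -0.32 and 0.71. For Socs3 and Stat3 the order was the same, with the naive liver lowest, then siRNC, saline and miR-27b. The shared receptor subunit gene Il6st differed by 0.32, and the kinase gene Jak1 by -0.15. NF-kB and cytokine genes had a median of 0.59, with 5 of 13 measured genes higher and 1 lower. Nfkbiz, an inducible regulator, was higher by 2.99, and the inhibitor gene Nfkbia was lower at -1.10. This list lay at the edge of its band and became in between on a log2 scale with a pseudocount of 5. Complement genes had a median of 0.67, with 8 of 25 higher, among them C9 at 1.57 and C4bpa at 1.45. C1qa (1.33), C1qb (1.29) and C1qc (1.38) were also among them, and these genes are in the macrophage and Kupffer cell list as well. Mbl2, a lectin that starts the pathway, was at -0.98. Interferon response genes were in between, with a median of 0.34 and 2 of 24 past 2-fold (Mx1 at 1.87, or 1.2 with the pseudocount, and Ifit3 at 1.55). In the stricter set this list was near, with a median of -0.07 over 7 genes.

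**Figure D4:**
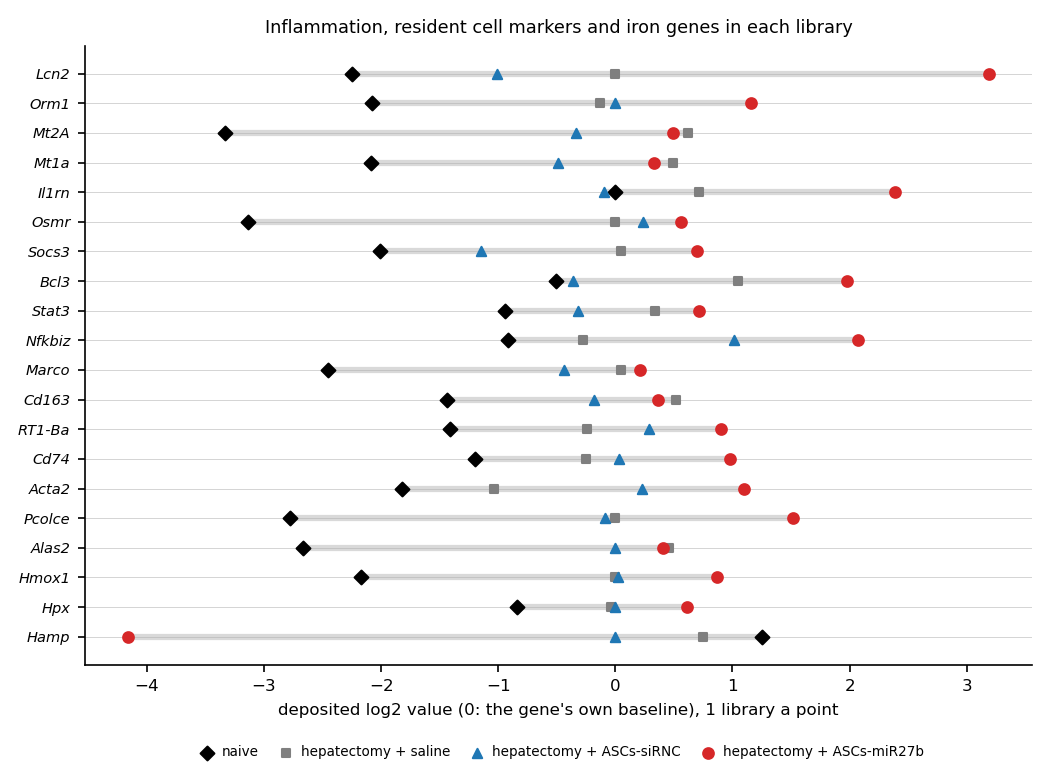
Deposited log2 value (x axis; 0 is the gene's own baseline) of 20 genes of inflammation, resident cells, haem and iron in the naive (black diamonds), saline (grey squares), siRNC (blue triangles) and miR-27b (red circles) livers, 1 library a point. The naive liver is lowest for most of the genes, Lcn2 and Il1rn stand out in the miR-27b liver at 3.19 and 2.39, and Hamp is lowest there at -4.16.

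Markers of cells other than hepatocytes were higher in the miR-27b liver than in the naive one. Among 22 measured macrophage and Kupffer cell markers 19 were at least 2-fold higher and 0 lower, with a median of 1.48. The saline liver had 17 higher and a median of 1.27, and the siRNC liver 14 and 1.21. Marco, a scavenger receptor gene of Kupffer cells, was at -2.45 in the naive, 0.05 in the saline, -0.44 in the siRNC liver and 0.21 in the miR-27b liver. The naive liver alone stood apart for this marker, and the same held for the haemoglobin scavenger gene Cd163, at -1.44 against 0.52, -0.18 and 0.36. Cd14, also expressed by other liver cells in inflammation, was the exception at -0.28. In bulk tissue more cells of a type and more RNA per cell cannot be told apart. MHC class II molecules present antigen on macrophages, dendritic cells and B cells. All 9 measured genes of their list, which also holds the lysosomal protease gene Ctss and the thiol reductase gene Ifi30, were at least 2-fold higher, with a median of 1.68 (1.24 with the pseudocount). Ifi30, the lowest of them at 1.02, came to 0.75 with the pseudocount. RT1-Ba was at -1.41 in the naive, -0.24 in the saline, 0.29 in the siRNC liver and 0.90 in the miR-27b liver. Cd74, the invariant chain gene, was at -1.20, -0.25, 0.03 and 0.98. For both genes the livers stood in the order naive, saline, siRNC, miR-27b. Close copies within the RT1 complex may share reads. By contrast MHC class I and the immunoproteasome were near naive, at a median of 0.10, with 1 of 15 past 2-fold.

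Endothelial and sinusoidal markers had a median of 0.72, with 9 of 20 higher and 0 lower, while the receptor gene Kdr was at -0.44. For stellate cells and matrix the median was 0.98, with 15 of 31 genes higher and 1 lower. Acta2, the smooth muscle actin of contractile cells, was at -1.82 in the naive, -1.04 in the saline, 0.23 in the siRNC liver and 1.10 in the miR-27b liver. Pcolce, an enhancer of procollagen processing, was at -2.78, 0.00, -0.09 and 1.52. Col1a1, which encodes fibrillar collagen, was at -2.0, -0.25, 2.5 and 0.00. With the pseudocount the difference of Pcolce went from 4.30 to 2.79 and that of Col1a1 from 2.0 to 1.22. The miR-27b liver was the highest for Acta2 and Pcolce, and the siRNC liver was the highest for Col1a1. The collagen crosslinker gene Lox was lower than naive at -1.94, and it was also lower in the saline (-2.86) and siRNC (-2.37) livers. For cholangiocyte and progenitor markers the median was 0.78, with 2 of 7 past 2-fold, and their mean (0.58) put the list in between. Mesenchymal and adipose markers, which cells given to the animal could also carry, were in between, with a median of 0.40 over 10 genes. The median was -0.13 over 6 genes in the stricter set and 0.07 without a filter, and their mean (0.62) put the list away. The fatty acid binding protein gene Fabp4 was the highest of them, at -2.97 in the naive, 0.00 in the saline, 0.40 in the siRNC liver and 1.53 in the miR-27b liver. The part of these cell types in the results above was not tested. Too few genes were measured for neutrophils (1 of 14), T and NK cells (3 of 19) and B and plasma cells (3 of 13). The 1 neutrophil gene, S100a9, was at -3.87 in the naive, -1.08 in the saline, 0.09 in the siRNC liver and 1.32 in the miR-27b liver. Its naive level was under 17.5 normalized reads, and its difference of 5.19 came to 2.88 with the pseudocount.

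Erythroid genes were away from the naive level: 8 of the 14 measured were at least 2-fold higher in the miR-27b liver, and the median was 1.03. The saline and siRNC livers had 7 and 6 higher. Alas2, the erythroid enzyme that starts haem synthesis, was at -2.67 in the naive liver and between 0.00 and 0.46 in the other 3. Slc4a1, the anion exchanger of red cells, was at -3.80 in the naive liver and between 0.00 and 0.35 in the others. For both genes the naive liver was low and the others close together. The naive level of Slc4a1 was under 18.4 normalized reads, and its difference of 4.15 came to 2.04 with the pseudocount. The list of haem synthesis enzymes, which also holds transporter genes and Tspo, was near naive, with a median of -0.17. Of its 12 measured genes 1 was past 2-fold, and this was Tspo at 1.23 and not an enzyme. Haem breakdown and scavenging was in between, with a median of 0.37, 4 of 14 genes higher and 1 lower. It was away in the stricter set (median 0.81 over 8 genes) and by its mean (0.62). Its highest member was Hmox1, the inducible haem oxygenase gene, at -2.17 in the naive, 0.00 in the saline, 0.02 in the siRNC liver and 0.87 in the miR-27b liver.

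Leaving out symbols that start with LOC, RGD or NEWGENE, the lowest difference in the stricter set belonged to Hamp. This set holds genes with a mean of at least 50 reads or in the class of at least 256. Hamp encodes hepcidin, the hormone that blocks iron export. It was at 1.25 in the naive, 0.75 in the saline, 0.00 in the siRNC liver and -4.16 in the miR-27b liver. The miR-27b liver alone was far below the others, with a difference of -5.41 against naive, while most genes of the positive acute-phase list, which holds Hamp as well, were above naive. Among the 19 measured genes of hepcidin and iron sensing 2 were higher and 3 lower, and the median was -0.26 (-0.01 over 14 genes in the stricter set). Besides Hamp the lower ones were Smad7 at -1.86, which encodes an inhibitory SMAD, and Atoh8 at -1.24, and the higher ones Cp at 1.89 and Tfrc at 1.05. In the TGF beta list, which also holds BMP genes, Id2 (-2.31), Bmp4 (-1.29) and Inhba (-1.12) were lower with Smad7, 3 of 28 genes were higher and 13 lay above 0. Id2 was lower by a similar amount in the saline (-1.81) and siRNC (-1.64) livers, and so was Smad7 (-1.67 and -1.57). The transferrin receptor gene Tfrc was at 0.00 in the naive, -1.06 in the saline, 0.89 in the siRNC liver and 1.05 in the miR-27b liver.

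The growth hormone, STAT5 and IGF list was away by spread and not by its median, which was -0.05: 6 of 24 genes were higher and 6 lower. Igfbp1, an inducible binding protein of insulin-like growth factor, was at -1.04 in the naive, 0.83 in the saline, -0.62 in the siRNC liver and 1.88 in the miR-27b liver. Cish, a STAT5 feedback inhibitor, was at -3.59, 0.00, 0.91 and -1.82, so that the miR-27b liver was the closest of the hepatectomized livers to naive, with a difference of 1.77 (0.59 with the pseudocount). Bcl6, a repressor opposed to STAT5, was at 2.70, -1.97, 0.00 and 0.68. Prlr, the prolactin receptor gene, was about 3 log2 units above naive in all 3, at 3.03 in the miR-27b liver (1.59 with the pseudocount). Igf1 itself differed by -0.20 and the receptor gene Ghr by -0.01. The major urinary protein genes Mup4 (-2.01) and Mup5 (-1.71), close copies of each other, and Cyp2c11 (-1.04), a P450 of male rat liver, were lower. With a pseudocount of 5 this list became in between.

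Several lists of hepatocyte functions were in between. Glycogen metabolism had a median of -0.47, with 4 of 16 genes lower and 1 higher, and in the stricter set it was away at -0.59 over 9 genes. Genes of phosphatase targeting subunits were at both ends of this list. Ppp1r3d was the highest, at 1.62 (1.27 in the saline and 1.47 in the siRNC liver). Ppp1r3b was at 1.5 in the naive, -1.14 in the saline, 0.75 in the siRNC liver and -1.13 in the miR-27b liver. Ppp1r3c was at 3.22 in the naive liver and between -0.43 and 0.00 in the other 3. Gys2, the liver glycogen synthase gene, differed by 0.38. Wnt targets and pericentral genes had a median of -0.49 with 4 of 18 lower and 1 higher, against 0.03 in the saline and -0.17 in the siRNC liver. That median was 0.00 over 23 genes without a filter and -0.11 over 9 in the stricter set. The Wnt targets Axin2 (-1.15), Rnf43 (-1.09) and Tbx3 (-1.39) were lower, with values of -1.25, -0.67 and -1.36 in the saline and -1.50, -0.80 and -2.89 in the siRNC liver. Another target, Nkd1, was the highest of the list at 1.23 (0.75 with the pseudocount), against 1.05 and 1.32. It had 5 recovered reads in the naive and 11.5 in the miR-27b liver (interval from -0.31 to 3.15). Cyp1a2, a pericentral P450, was 0.78 above naive, while Glul (-0.11), Cyp2e1 (-0.47), Rhbg (-0.81) and Oat (-1.04) of the same list were below it. Of the 18 genes 7 lay above naive and 11 below it.

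Bile acid and organic anion transporters had a median of -0.32, with 3 of 18 lower and 0 higher. The sterol exporter subunits Abcg5 and Abcg8 were both among the lowest. Abcg5 was at 1.45 in the naive, 0.98 in the saline, 0.00 in the siRNC liver and -0.56 in the miR-27b liver. For Abcg8 the reads could be recovered, and they came to 41.39, 18.81, 12 and 6 in the same order. That is a difference of -2.76 with an exact 95% binomial interval from -4.27 to -1.5, which covers counting error only. In both genes the miR-27b liver was the lowest. The uptake transporter gene Slco1a2 was lower at -2.18, and the canalicular exporter gene Abcc2 at -0.97 against -0.11 and 0.11 in the saline and siRNC livers. NRF2 and antioxidant genes had a median of -0.30, with 2 of 21 higher (Hmox1 and Nqo1) and 4 lower. Akr7a3, an aldehyde reductase gene, was at 1.14, 1.16, 0.00 and -0.54, and Gclm, a subunit of the glutathione-making ligase, was at 0.40, -0.06, 0.00 and -0.90 in the same order as above. The list of P450 genes of families 1 to 3, which also holds the P450 oxidoreductase gene Por, had a median of -0.10, with 3 of 28 higher and 3 lower. Its median was 0.28 over 23 genes in the stricter set, and it was near without a filter and with the pseudocount (-0.08 each). Por was 1 of the 3 higher genes, at 1.78. Cyp2c24 was the highest at 4.51, on 3 recovered reads in the naive and 67 in the miR-27b liver (interval from 2.90 to 6.83), and it may share reads with close members of its family. The ethanol-oxidizing Cyp2e1 differed by -0.47.

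Of 42 listed mitosis genes 8 were measured, and they had a median of -0.44 in the miR-27b liver, against -0.84 in the saline and -0.49 in the siRNC liver. Mki67, the proliferation marker gene, was at 0.94 in the naive, -0.60 in the saline, -1.31 in the siRNC liver and 0.13 in the miR-27b liver. Top2a, the topoisomerase of dividing cells, had 53.03, 7, 8 and 18.9 recovered reads in that order, which put the miR-27b liver at -1.46 (interval from -2.29 to -0.67). For both genes the naive liver was the highest of the 4. DNA replication genes had a median of -0.10 with 1 of 17 past 2-fold. G1 cyclins, kinases and inhibitors had a median of -0.06, but Ccnd1, which encodes cyclin D1, was at 0.79 in the naive, 0.06 in the saline, -1.22 in the siRNC liver and -1.71 in the miR-27b liver. Cdkn1a, the gene of the inhibitor p21, was at 0.64, 0.00, -2.30 and 0.49. In Cdkn1a the siRNC liver alone was low, and the miR-27b liver was within 0.16 of naive. Wee1, a kinase that holds back mitosis, was at 0.00, 0.33, 0.41 and -2.12, low in the miR-27b liver alone (-1.27 against naive with the pseudocount).

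Growth factor ligands and receptors were near the naive level, with a median of -0.20 and 2 of 16 past 2-fold. Hgf differed by 0.65 and its receptor gene Met by 0.10. In the TGF beta list, in between at a median of -0.21 but near with the pseudocount (-0.16) and at 0.02 without a filter, Tgfb1 was 1.25 above naive. Tgfb2 had 1 recovered read in the naive and 24.18 in the miR-27b liver, a difference of 4.63 with an interval from 2.0 to 9.98 (2.33 with the pseudocount). Immediate early genes were in between, with a median of 0.18, 4 of 19 higher and 2 lower, and 16 further members fell below the level filter. Egr1 was at 0.00 in the naive, -1.71 in the saline, -1.42 in the siRNC liver and 1.47 in the miR-27b liver. Dusp1, a phosphatase that ends MAP kinase signalling, was at 2.27, -1.53, 0.00 and -0.57. Egr1 was thus highest in the miR-27b liver and Dusp1 highest in the naive liver. Stress genes of the p53 and GADD45 group had a median of 0.04, with Gadd45g the lowest at -2.32 (-1.41 with the pseudocount), and ER stress genes a median of 0.13.

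The miR-27b liver was the closest of the 3 hepatectomized livers to naive for 5 of 6 clock activators and nuclear receptors, 3 of 9 clock repressors and 8 of 13 clock output genes, and for 28.6% of all kept genes. The clock is a loop in which Arntl and Clock switch on their own repressors and output genes such as Dbp. Arntl was at 1.07 in the naive, 0.00 in the saline, -2.13 in the siRNC liver and 0.15 in the miR-27b liver, and Clock was at 0.94, -0.43, -0.91 and 0.00. The list of activators and nuclear receptors was called near, at a median of -0.20 over 6 genes, against -0.43 in the saline and -1.57 in the siRNC liver. That median hides a split, since Arntl, Clock and Npas2 were lower (-0.80 to -0.94) and Nr1d1 and Nr1d2 higher (1.49 and 0.95). Dbp was at -5.13, 0.00, 1.59 and -1.59, and Per3 at -3.96, 0.03, 1.57 and -1.86. For both genes the naive liver was lowest, followed by the miR-27b, saline and siRNC livers. The naive level of Dbp was under 7.3 normalized reads, so its difference of 3.54 is imprecise, and with a pseudocount of 5 at the bottom of its class it came to 0.92. For Per3 the difference went from 2.10 to 0.64 in the same way. For other members the miR-27b liver was not the closest to naive. The repressor gene Cry1 differed by -1.30 against -1.47 in the saline and -0.37 in the siRNC liver, and Bhlhe40 by -1.64 against -2.25 and -0.99. For both genes the miR-27b liver lay between the saline and siRNC livers. The output gene Wee1 differed by -2.12 against 0.33 in the saline and 0.41 in the siRNC liver. The clock repressors and output genes were in between, at medians of -0.17 and 0.28, and the output genes were away without a filter (0.29) and in the stricter set (0.73 over 5 genes). The time of day of collection is not given in the labels used here.

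**Figure D5:**
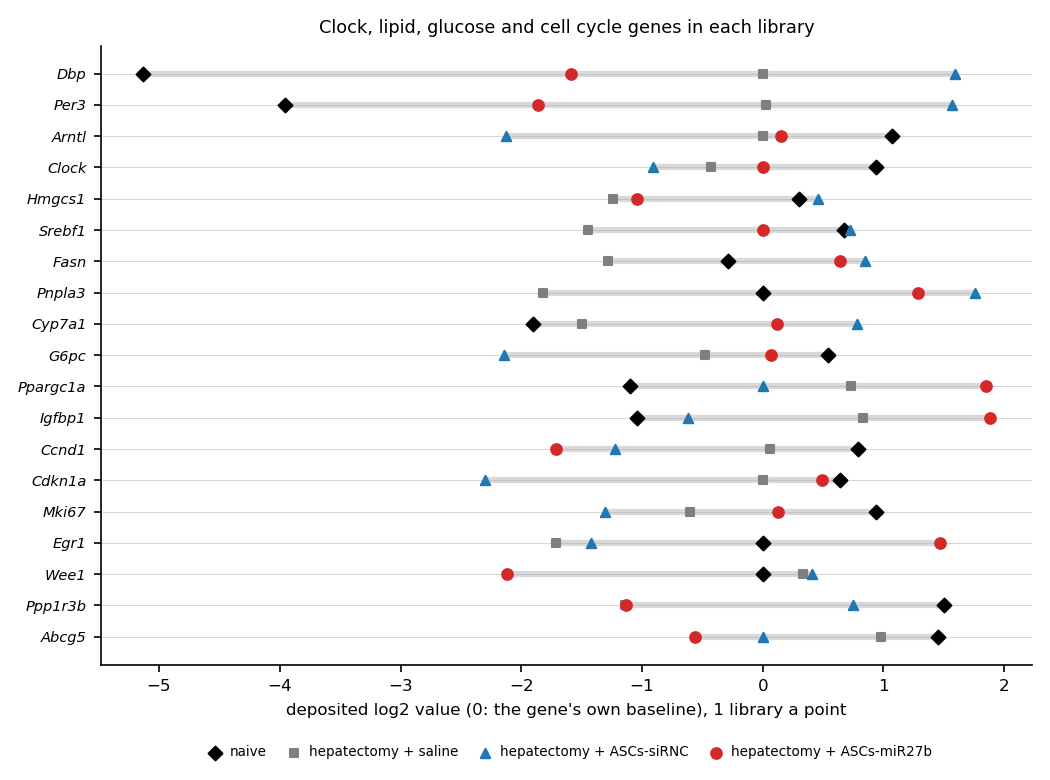
Deposited log2 value (x axis; 0 is the gene's own baseline) of 19 clock, lipid, glucose, growth and transport genes in the naive (black diamonds), saline (grey squares), siRNC (blue triangles) and miR-27b (red circles) livers, 1 library a point. For Dbp, Per3, Arntl, Clock and G6pc the miR-27b liver lies nearer to naive than the siRNC liver does, whereas Ccnd1, Wee1 and Abcg5 are lowest in the miR-27b liver.

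Genes reported as targets of miR-27b were near the naive level. Among 24 measured genes the median was 0.07, with 3 at least 2-fold higher and 0 lower. That put 12.5% past 2-fold, against 11.4% of all kept genes. The saline and siRNC livers had medians of -0.07 and 0.11. The highest was Ppargc1a at 2.96, followed by Adam19 at 1.45 and Sema6d at 1.26, and the lowest was the glycerol acyltransferase gene Gpam at -0.85. Other genes of the PGC-1 and mitochondrial biogenesis list did not go with Ppargc1a: the median over 16 genes was -0.19, with Polg2 at 1.08 as the only other member past 2-fold.

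Outside the lists, the highest and lowest genes of the stricter set, without LOC, RGD and NEWGENE symbols, added a few names. Upp2, a uridine phosphorylase gene of liver, was at -1.85 in the naive, 1.37 in the saline, 0.00 in the siRNC liver and 1.32 in the miR-27b liver. Slc13a5, the citrate importer of hepatocytes, had 20, 47.89, 48.94 and 167.66 recovered reads in that order, a difference of 3.10 (interval from 2.43 to 3.85). Stac3 was lowest after Hamp, at 2.20, -0.46, 1.03 and -2.04, and Eml1 was at 0.30, 0.01, 0.00 and -2.84. Slc13a5 was highest and Stac3 and Eml1 were lowest in the miR-27b liver, while Upp2 was about as high in the saline liver.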

How the data were processed

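TruSeq libraries of poly(A) RNA from liver, 1 library per group and 4 in all, were run on an Illumina MiSeq, per the labels' protocols. The submitters' processing notes name DESeq and the build rn5, and no source used here names the aligner or the counter. The deposited values are log2 of normalized reads minus a baseline per gene. They behave as size-factor-scaled reads with a floor of 1, and a middle library was at exactly 0 for 77.3% of the 12874 genes that have any nonzero value. Differences between 2 libraries are not affected by the baseline.

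Read numbers were recovered for 2198 genes from the steps of 1/202 of a read between libraries (search up to 200 reads, posterior above 0.99), and of their kept values 45.9% were whole. The other genes were placed in classes of at least 16 or at least 256 normalized reads at their baseline, read from how finely the stored numbers are rounded in binary, with a probability of at least 0.5. Single genes can be placed wrongly. The filter kept 405 genes whose recovered reads averaged 10 or more, 6039 genes of the lower class and 2857 of the higher. The stricter set held 3028 genes. The recovery was tested on simulated data.

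Lists were matched by symbol or, through RefSeq's GRCr8 table, by gene ID, and 1197 distinct genes were measured in them. Genes on several kept rows were left out of the lists. Named genes are up to 10 highest and 10 lowest of the stricter set, up to 4 highest, 4 lowest and 2 nearest 0 of each list, and a fixed set. Symbols starting with LOC, RGD or NEWGENE were left out of the 10 highest and 10 lowest. The hepatocyte markers are named too. Some genes that these rules name are not reported here. The comparison, lists and rules were chosen with earlier results of these data known. Intervals are exact conditional binomial, with the recovered reads rounded to whole numbers first. Alternatives were no filter, the stricter set, a pseudocount of 5, centring, 1.5-fold and 3-fold, and the mean of a list. Python 3.11.15, numpy 2.4.6, pandas 2.3.3 and scipy 1.17.1 were used.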

Additional observations from a re-analysis of the deposited data

How the results depend on the processing

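The 717 higher and 345 lower genes depend on the threshold and the filter. Without a filter they were 1635 and 789 of 12874, in the stricter set 191 and 88 of 3028, and with a pseudocount of 5 at the bottom of each level class 475 and 212. At 1.5-fold they were 1316 and 1111, and at 3-fold 274 and 106. In the stricter set 7 of 45 lists were away in the saline and 7 of 45 in the siRNC liver, against 11 and 10 of 55, while the miR-27b liver had 11 of 45 against 11 of 55. Near lists that became in between were those of triglycerides (-0.28), p53 and GADD45 stress (-0.28), haem synthesis (-0.33) and ribosome biogenesis (-0.30) in the stricter set, G1 cyclins (0.05), DNA replication (0.13), growth factors (-0.29) and clock activators (-0.29) without a filter, the urea cycle on centring (0.27), and coagulation (0.44) and G1 cyclins (-0.27) by the mean. Over the 5 alternatives for lists, 24 of 265 list states changed and 0 went from near to away or back. The median of the growth hormone list was 0.02 without a filter and its mean 0.09, against -0.05. Of 265 list medians under an alternative, 209 moved by less than 0.13, and the cause of larger moves was not tested. No paired analysis was possible because each group holds 1 library. For the same reason no library could be left out, and the depth behind most values is known only by class.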
